A study of Mus musculus with 8 samples.

Results

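The respiratory chain genes described here are the 96 genes, of 55780 in the deposited mouse expression table, that carry a respiratory complex subunit name and reached a mean of 1 FPKM or more in either group. FPKM, the unit of the table, is the number of sequenced fragments scaled by gene length and by 1 total per library. They were chosen by name: the mitochondrial genes mt-Nd, mt-Co, mt-Cytb and mt-Atp, and the nuclear genes Nduf (complex I), Sdh (complex II), Uqcr (complex III), Cox4 to Cox8 (complex IV) and Atp5 (complex V). Of 108 names that matched, 13 mitochondrially encoded and 83 nuclear encoded genes passed, the nuclear ones including 3 pseudogenes, and 12 stayed below the minimum. Just inside it stood the pseudogene Cox7c-ps1, at 0.797 FPKM in Ctrl and 1.07 in Ep1, the only gene that entered through 1 group alone, and just outside it stood Atp5l2-ps at 0.421 and 0.926 FPKM.

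Total RNA from C57BL/6 mice was sequenced in 8 libraries, 4 named Ctrl and labelled as untreated, and 4 named Ep1. The labels give Ep1 as PDT at 10 J/cm2 for Ep1 1 and 2 and at 20 J/cm2 for Ep1 3 and 4, but MNP stands in the series title and magnetic force in its design text. Which of these Ep1 received cannot be told from the labels, and Ep1 is used as a name. Age, time after treatment and any allele beyond the strain are not given in the sources used here. Separate animals are not stated either, so a p-value reflects only how far these libraries differ, and part of that may be technical. The labels name both brain tissue and a brain microvessel endothelial cell type. In Ctrl, 6 neuron markers summed to 1271 ± 57.8 FPKM (SD, n = 4) and 5 endothelial markers to 33.8 ± 3.74 FPKM, so the libraries are read as brain tissue.

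The respiratory chain of the inner mitochondrial membrane passes electrons from NADH through complex I and from succinate through complex II to complexes III and IV, and complex V uses the proton gradient that complexes I, III and IV build to make ATP. Complexes I, III, IV and V each combine subunits encoded in the mitochondrial genome with subunits encoded in the nucleus, and complex II is encoded in the nucleus alone. Neurons rely on this chain for most of their ATP, and the mitochondrial messages are cut out of long transcripts that cover nearly a whole strand of the circular genome.

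A stretch of the mitochondrial genome from the end of mt-Co1 to the first part of mt-Nd4 is also present in the nuclear genome, on the minus strand of chromosome 1, where GENCODE M21 annotates 7 copies between 24611535 and 24616197 (GRCm38). The sequences below, from the GENCODE M21 transcripts, are shown because reads of such copies and of the mitochondrial genes can be alike. Each line holds 40 bases, 5′ to 3′, and capitals mark bases that differ between a mitochondrial gene and its copy, so that a pair without capitals is identical in the window.
mt-Co1: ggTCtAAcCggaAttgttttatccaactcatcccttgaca
Gm29216: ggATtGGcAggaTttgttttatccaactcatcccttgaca
mt-Co2: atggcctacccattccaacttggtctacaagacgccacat
Gm28661: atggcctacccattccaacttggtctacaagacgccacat
mt-Nd3: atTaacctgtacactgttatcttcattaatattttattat
Gm28438: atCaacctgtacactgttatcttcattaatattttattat
Positions are counted from 1 at the 5′ end of the mitochondrial gene. The mt-Co1 window spans positions 1054 to 1093 and the other windows start at position 1. The copy of mt-Co1 covered 492 bases and differed at 6 of them (T1056A, C1057T, A1059G, A1060G, C1062A and A1066T, with the mitochondrial base first), an identity of 98.78%. The copy of mt-Nd3 differed at 1 of 345 bases (T3C). The copies of mt-Co2, mt-Atp6, mt-Co3 and mt-Nd4l were identical to the mitochondrial gene over their whole length, as was the 876-base copy of the start of mt-Nd4.

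The mitochondrial members fell into 2 classes of level along the genome. mt-Nd1, mt-Nd2, mt-Co1, mt-Nd4, mt-Nd5, mt-Nd6 and mt-Cytb had means over all 8 libraries between 1735 FPKM (mt-Nd6) and 8117 FPKM (mt-Co1), with mt-Cytb at 4441 and mt-Nd1 at 4085. The 6 members that lie together from mt-Co2 to mt-Nd4l had means of 141 FPKM (mt-Co2), 80.04 (mt-Atp6), 53.7 (mt-Co3), 33.4 (mt-Nd4l), 7.26 (mt-Nd3) and 5.31 (mt-Atp8). All 6 together held 0.0214% ± 0.00635 of fragments in Ctrl, against 3.268% ± 0.7002 for the other 7 (SD, n = 4). FPKM is scaled by length, but the next paragraphs give a limit on the levels of these 6.

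Members with low levels were largely those with an identical or nearly identical nuclear copy. Of all 50-base stretches of the transcript, the share also found in another annotated gene was 100% for mt-Co2, 99.9% for mt-Co3, 99.5% for mt-Atp6, 98.8% for mt-Nd4l and 98.0% for mt-Nd3. It was 62.2% for mt-Nd4, 51.1% for mt-Co1 and 8.19% or less for mt-Nd1, mt-Nd2, mt-Nd5, mt-Nd6 and mt-Cytb. mt-Atp8 shared none with another annotated gene and was still the lowest, with 9 to 27 fragments per library. It lies between mt-Co2 and mt-Atp6, inside the stretch that is present on chromosome 1, but no copy of it is annotated there. The copy of mt-Atp6 ends at 24614651 and that of mt-Co2 starts at 24614885. The count covers annotated genes only, and the bases between these copies were not compared with mt-Atp8, so its 0 does not show that it is unique. How the authors assigned reads that match 2 places is not given in the sources used here, so the levels of these 6 members are uncertain, and the part of read assignment in them was not tested.

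The copies of mt-Co2, mt-Atp6, mt-Co3 and mt-Nd4l stood close to their mitochondrial partners. Gm28661 had a mean of 136.5 FPKM beside 141 for mt-Co2, Gm10925 had 64.3 beside 80.04 for mt-Atp6, Gm28437 had 39.7 beside 53.7 for mt-Co3, and Gm10222 had 29.4 beside 33.4 for mt-Nd4l. Gm28438 had 85.7 FPKM beside 7.26 for mt-Nd3, the pair that differs at the base in capitals. Partners of the 2 longer mitochondrial genes were far below them, at 34.9 FPKM for Gm29216 beside mt-Co1 and 17.7 FPKM for Gm28439 beside mt-Nd4.

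mt-Atp8 and mt-Atp6, which encode the 2 mitochondrial subunits of ATP synthase, share 43 bases of the mitochondrial genome (MT:7927-7969). The stretch is shown because the same bases belong to the end of mt-Atp8 and the start of mt-Atp6, with the start codon of mt-Atp6 in capitals.
mt-Atp8 and mt-Atp6 overlap: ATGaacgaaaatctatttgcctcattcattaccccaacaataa
The overlap makes up 21.1% of mt-Atp8, and the sequence of a fragment wholly inside it cannot tell the 2 genes apart. How fragments that touch the overlap were counted is not given in the sources used here.

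**Figure D1:**
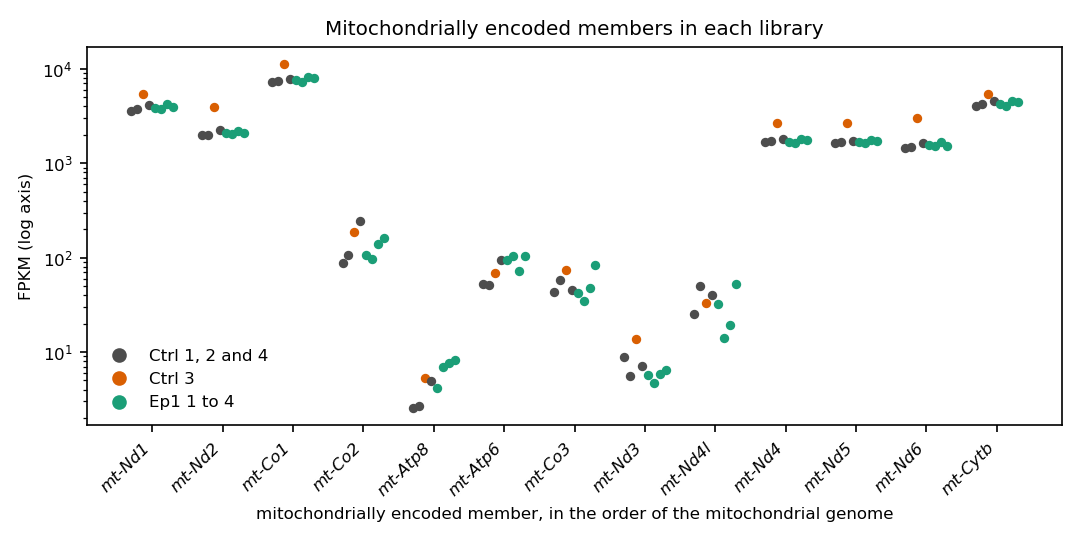
FPKM of the 13 mitochondrially encoded members (log axis) in the order of the mitochondrial genome, 1 point per library, with Ctrl 3 in orange, the other Ctrl libraries in grey and Ep1 in green. mt-Co2 to mt-Nd4l lie far below the 7 others, and Ctrl 3 is the highest library for each of those 7.

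Ctrl 3 stood apart from the other libraries. Its Pearson correlation with the other 3 controls, over genes, was 0.967 to 0.971, while those 3 reached 0.986 to 0.988 among themselves; genes are not independent replicates. The mitochondrial members took 2.84%, 2.92%, 4.34% and 3.06% of fragments in Ctrl 1 to 4, and 2.85%, 2.80%, 3.10% and 2.97% in Ep1 1 to 4. Ctrl 3 was the highest, and no other library exceeded 3.10%. The means were 3.29% ± 0.703 in Ctrl and 2.93% ± 0.133 in Ep1 (SD, n = 4 each), a difference of -0.359 percentage points, and without Ctrl 3 the Ctrl mean was 2.94% ± 0.112 (n = 3) and the difference -0.0105. Both groups overlapped with and without that library.

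Within Ctrl 3, the classes deviated in opposite directions. Of the 13 mitochondrial members, 10 were above all 3 other controls and 8 above all 7 other libraries, with a median ratio to the mean of the other controls of 1.49. The ratio was largest for mt-Nd6 (1.96, from the minus strand), mt-Nd2 (1.90) and mt-Nd3 (1.88), and smallest for mt-Nd4l (0.853). Of the 83 nuclear members, 49 were below the other controls and 21 above, with a median ratio of 0.897. The same library held 1.46% of fragments in the gene CT010467.1, against 0.0754% to 0.184% elsewhere, and 0.733% in the 2 mitochondrial ribosomal RNAs, against 0.388% to 0.497%. The part of that library's composition in the members' values was not tested.

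**Figure D2:**
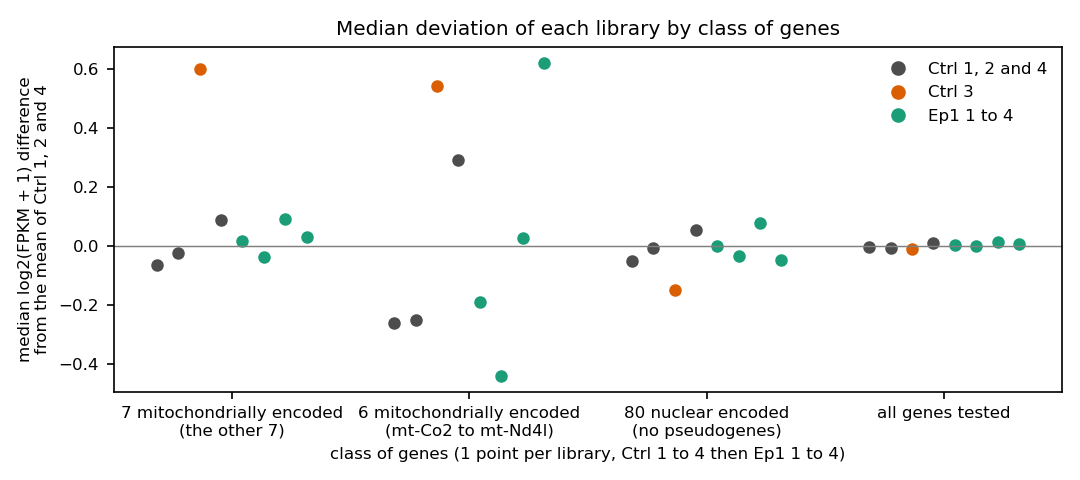
Median over each class of genes of the log2(FPKM + 1) difference between 1 library and the mean of Ctrl 1, 2 and 4; each point is a library, in the order Ctrl 1 to 4 and Ep1 1 to 4. For the 7 abundant mitochondrial members Ctrl 3 lies at 0.60 and the other libraries between -0.064 and 0.091; for the 80 nuclear members Ctrl 3 lies at -0.15.

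The nuclear members did not shift as a block in Ctrl 3. Atp5k, the e subunit of ATP synthase, stood at 35.7, 47.7, 6.67 and 56.3 FPKM in Ctrl 1 to 4 and at 56.3, 52.7, 57.7 and 43.3 in Ep1 1 to 4, so that Ctrl 3 alone lay far below. Ndufa2, an accessory subunit of complex I, stood at 80.8, 75.7, 32.1 and 76.1 FPKM in Ctrl and 68.1 to 91.4 in Ep1. Cox7c, a small subunit of complex IV, went the other way, at 68.9, 70.3, 125.1 and 79.3 FPKM in Ctrl and 61.3 to 83.6 in Ep1. Other members with low values in Ctrl 3 were Atp5o (16.9 FPKM against 36.2 to 38.3 in the other controls), Uqcrq (27.6 against 51.4 to 53.5), and Uqcr11 (50.6 against 86.5 to 105.1). Higher values in that library were seen for Atp5mpl (53.7 FPKM against 32.0 to 37.2), Ndufb9 (63.9 against 38.4 to 47.6) and Ndufs4 (20.2 against 13.5 to 15.1).

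The ratio in Ctrl 3 went with gene length and base composition among the 80 nuclear members that are not pseudogenes. The median ratio was 0.732 for the 21 members under 1000 bases, 0.896 for 31 members of 1000 to under 2000 bases and 0.987 for 28 members of 2000 bases or more. It was 1.01 for 11 members with a GC content under 45%, 0.930 for 26 members between 45% and 50%, and 0.761 for 43 members of 50% or more. Across these 80 genes, which share 1 library, Pearson's r of the log2 ratio was 0.36 with log2 length and -0.33 with GC content, as a description. In the other 7 libraries, each set against the rest of its group, r lay between -0.29 and 0.23 with log2 length and between -0.18 and 0.24 with GC content. For Ctrl 1, 2 and 4 that rest includes Ctrl 3, so their values are not independent of it. Over all genes tested, those under 1000 bases had a median ratio of 0.969 in Ctrl 3. This lay within the 0.955 to 1.03 of the other 7 libraries. These classes were chosen after the values were seen, and the part of length and base composition in the ratio was not tested.

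**Figure D3:**
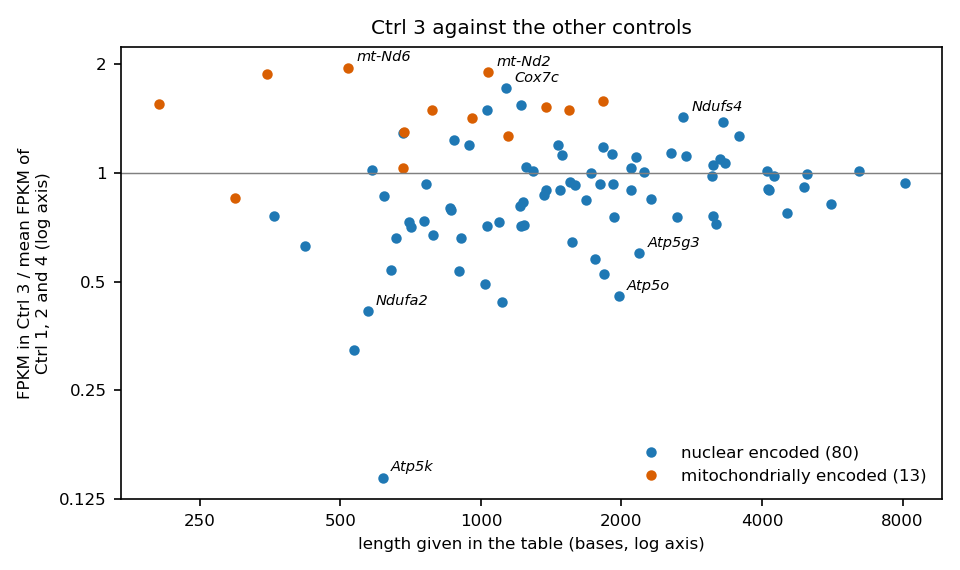
FPKM in Ctrl 3 divided by the mean of Ctrl 1, 2 and 4 (log axis) against gene length in bases (log axis), with 1 point for each of the 80 nuclear encoded members (blue) and 13 mitochondrially encoded members (orange). Short nuclear members reach the lowest ratios, down to 0.143 for Atp5k, and most mitochondrial members lie above 1.

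Levels of the nuclear members had a median of 44.3 FPKM over the 80 genes that are not pseudogenes, from 1.27 FPKM (Cox8b) to 557 FPKM (Cox8a). Of these, 62 had a mean of 20 FPKM or more and 6 of 100 FPKM or more. By complex, the median level was 42.8 FPKM for the 34 members of complex I, 48.1 for the 4 of complex II, 58.8 for the 8 of complex III, 60.5 for the 17 of complex IV (Ndufa4 and Cox7a2l counted there) and 35.4 for the 17 of complex V. The highest in each were Ndufa8 (80.1 FPKM), Sdha (77.7), Uqcr10 (99.0), Cox8a and Atp5b (219.3).

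Listed levels differed widely between some core subunits of 1 enzyme; how reads that match 2 places were assigned, and the annotation used, are not given in the sources used here, so low listed values are uncertain. Atp5b, the catalytic beta subunit of ATP synthase, had a mean of 219.3 FPKM, and Atp5a1, the alpha subunit that alternates with it in the head of the enzyme, had 8.36. Uqcrc2 stood at 55.2 FPKM and its partner core protein Uqcrc1 at 2.26. Ndufs3, a core subunit of complex I and not among the 96, had 1 fragment in Ctrl 3 and 1 in Ep1 2 and was listed at 0 in the other 6 libraries, while the core subunits Ndufs7 and Ndufs8 had means of 49.4 and 40.8 FPKM. Of 50-base stretches, 17.9% of Ndufs3, 2.49% of Atp5a1 and 0% of Uqcrc1 were shared with another annotated gene.

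Where complex IV and ATP synthase have isoforms for different tissues, the forms found widely were the abundant ones. Cox4i1 had a mean of 242.8 FPKM and Cox4i2, known from lung, 2.07. Cox6a1 had 444.3 FPKM and the heart and muscle form Cox6a2 5.74, Cox7a2 had 88.6 and the heart and muscle form Cox7a1 1.51, and Cox8a had 557 beside 1.27 for the heart and muscle form Cox8b. Cox6b1 had 146.3 FPKM and the testis form Cox6b2 1.37, and Cox8c, also known from testis, was listed at 0 in all 8 libraries. Cox7a2l, a factor of supercomplexes, had 60.4 FPKM. Of the genes for the c subunit of ATP synthase, Atp5g3 had 74.6 FPKM, Atp5g2 31.2 and Atp5g1 9.86.

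The comparison of Ep1 with Ctrl asked whether transcript levels differed between treated and untreated samples. Of the 96 members, 1 passed an adjusted p of 0.05 (limma on log2(FPKM + 1), Benjamini-Hochberg over 14710 genes), a share of 1.04%, where 26.1% of all genes tested passed, 15.5% higher and 10.6% lower in Ep1. Groups did not overlap for 2 members, or 2.08%, against 31.8% of all genes tested. The member that passed was Atp5pb-ps, a pseudogene of the b subunit gene of ATP synthase. In bulk samples fewer cells of a type and less RNA per cell cannot be told apart, and this holds for every level given here.

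The differences of the members were smaller in size than those of genes at large, at a similar error. The median of the absolute log2 difference was 0.11 over members and 0.17 over all genes tested, with median SEs of 0.10 and 0.09. The 95% interval lay within a 1.5-fold change either way for 73 of 96 members, and for 10969 of 14710 genes. For the other 23 members a change of 1.5-fold or more lies inside the interval. Without Ctrl 3, the medians were 0.051 over members and 0.16 over all genes tested, 82 intervals lay within 1.5-fold, and 2 members passed, Ndufb4 and Atp5pb-ps, against 26.6% of all genes tested.

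Mitochondrial and nuclear members differed in the sign of their median. It was -0.16 for the 13 mitochondrial members, 0.049 for the 83 nuclear members and 0.0072 for all genes tested, on the log2(FPKM + 1) scale. Without Ctrl 3 the medians were 0.019, 0.0076 and 0.0018. Limma on voom weights, with summed fragments as the library total, gave -0.19, 0.019 and -0.024 with all 8 libraries. Quantile normalization gave 0.003 for the mitochondrial and -0.014 for the nuclear members, so neither sign held under every setting. A score over the members gets no p here.

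**Figure D4:**
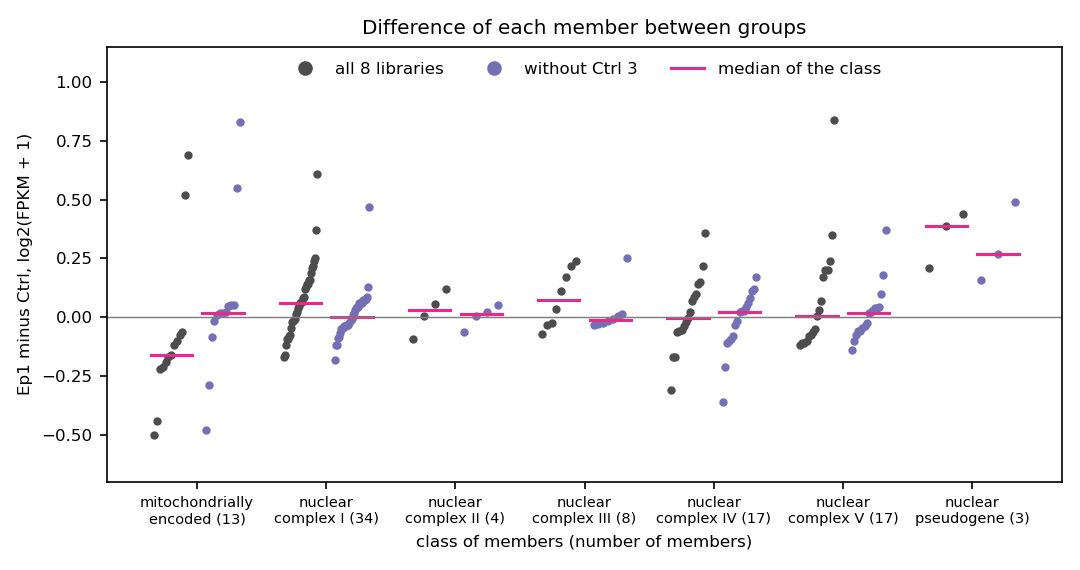
Difference between Ep1 and Ctrl in mean log2(FPKM + 1) for each of the 96 members, by class and sorted within it, with all 8 libraries (grey) and without Ctrl 3 (purple); pink lines mark medians. Mitochondrial members centre at -0.16 with all libraries and at 0.019 without Ctrl 3, and the spread of the nuclear classes narrows as well.

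None of the 7 abundant mitochondrial members passed. mt-Co1, the catalytic subunit of complex IV, stood at 7279, 7416, 11208 and 7900 FPKM in Ctrl 1 to 4 and at 7635, 7200, 8264 and 8033 in Ep1 1 to 4, with Ctrl 3 above all other libraries and the other controls overlapping with Ep1. Its log2 difference was -0.10 ± 0.14 (SE, adjusted p 0.629) and 0.046 ± 0.055 without Ctrl 3 (adjusted p 0.561). mt-Nd2, a proton-pumping subunit of complex I, stood at 1969, 2013, 3935 and 2247 FPKM in Ctrl and at 2105, 2028, 2185 and 2082 in Ep1. Its difference was -0.21 ± 0.20 with all libraries (adjusted p 0.456) and 0.018 ± 0.053 without Ctrl 3. Ep1 values lay inside the range of the other 3 controls.

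mt-Cytb, the mitochondrial subunit of complex III, had 4550 ± 593 FPKM in Ctrl and 4333 ± 202 in Ep1 (SD, n = 4), a log2 difference of -0.063 ± 0.10 (SE, adjusted p 0.662). The complex I genes mt-Nd1, mt-Nd4, mt-Nd5 and mt-Nd6 had differences of -0.075 ± 0.13, -0.17 ± 0.14, -0.16 ± 0.15 and -0.19 ± 0.21. All 7 were negative with Ctrl 3 and 6 were positive without it, when they ran from -0.016 (mt-Nd4) to 0.05 (mt-Nd6) and each 95% interval lay within -0.12 to 0.18.

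Larger differences, with larger errors, were found among the 6 low mitochondrial members. mt-Atp8 stood at 2.55, 2.68, 5.27 and 4.94 FPKM in Ctrl 1 to 4 and 4.15, 6.87, 7.73 and 8.25 in Ep1 1 to 4, with Ep1 1 inside the range of Ctrl. The log2 difference was 0.69 ± 0.25 (SE, adjusted p 0.0765). mt-Atp6 stood at 53.1, 50.7, 68.1 and 93.6 FPKM in Ctrl and at 94.8, 103.2, 72.0 and 104.8 in Ep1, with Ep1 3 below Ctrl 4 and a log2 difference of 0.52 ± 0.20 (adjusted p 0.0905). mt-Nd3 stood at 8.95, 5.65, 13.6 and 7.16 FPKM in Ctrl and 5.74, 4.70, 5.88 and 6.38 in Ep1, a log2 difference of -0.50 ± 0.22 (adjusted p 0.124) with overlapping groups. These 3 had an unadjusted p under 0.05, 2 higher and 1 lower, out of 13 mitochondrial members. Over all 14710 genes tested, 3233 higher and 2639 lower had such a p. Limma on voom weights called 0 of 13 after adjustment, against 29.5% of all genes tested. mt-Co2, mt-Co3 and mt-Nd4l had differences of -0.22 ± 0.33, -0.12 ± 0.27 and -0.44 ± 0.39. With all libraries, 95% intervals of these 6 reached from -1.33 to 1.26 and none lay within 1.5-fold.

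Among the 80 nuclear members that are not pseudogenes, 0 passed limma after adjustment, and 3 higher and 2 lower had an unadjusted p under 0.05. Over all 14710 genes tested, 3233 higher and 2639 lower had such a p. Voom weights called 0 of the 80, against 29.5% of all genes tested. Complex I, which has 34 of the 80 members, held 4 of the 5 with an unadjusted p under 0.05. Ndufb4, an accessory subunit of its membrane arm, stood at 21.2, 21.9, 20.5 and 23.1 FPKM in Ctrl 1 to 4 and 20.1, 19.1, 20.3 and 17.7 in Ep1 1 to 4. Every Ep1 library was below every Ctrl library, with a log2 difference of -0.16 ± 0.062 (SE, adjusted p 0.0839) that reached an adjusted p of 0.0499 without Ctrl 3. Ndufs8, a core subunit that binds iron-sulfur clusters, stood at 43.0, 41.2, 42.8 and 43.1 FPKM in Ctrl and 38.8, 38.5, 41.6 and 37.2 in Ep1. Only Ep1 3 overlapped with Ctrl, and the difference was -0.12 ± 0.052 (adjusted p 0.114).

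Ndufc2, an accessory subunit of the membrane arm, stood at 51.1, 50.1, 37.5 and 51.3 FPKM in Ctrl and 59.6, 56.4, 52.1 and 55.2 in Ep1. Every Ep1 library was above every Ctrl library, with a log2 difference of 0.24 ± 0.10 (SE, adjusted p 0.113) and of 0.13 ± 0.05 without Ctrl 3 (adjusted p 0.0856). Ndufa12, another accessory subunit, stood at 8.50, 8.84, 5.72 and 9.30 FPKM in Ctrl and at 17.4, 16.3, 8.30 and 10.8 in Ep1. Both libraries at 10 J/cm2 were well above Ctrl, and of those at 20 J/cm2 Ep1 3 lay inside its range. The difference was 0.61 ± 0.24 (adjusted p 0.0899). The 34 complex I members had a median log2 difference of 0.061, and of -0.00096 without Ctrl 3. Ndufa8, the most abundant of them, had 0.13 ± 0.086 (adjusted p 0.291).

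None of the 4 members of complex II, which has no mitochondrial subunit, passed. Sdha, the flavoprotein, had 76.1 ± 3.81 FPKM in Ctrl and 79.2 ± 2.66 in Ep1, and Sdhb, the iron-sulfur protein, 45.9 ± 1.57 and 46.1 ± 2.29 (SD, n = 4). The membrane anchors Sdhc and Sdhd had 19.6 ± 0.9749 and 18.2 ± 0.446, and 48.2 ± 5.13 and 52.2 ± 2.75. Log2 differences were 0.057 ± 0.056, 0.0047 ± 0.055, -0.094 ± 0.053 and 0.12 ± 0.081 (SE) in that order, the smallest adjusted p was 0.212, and all 4 intervals lay within -0.21 to 0.30.

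Complexes III and IV also had no member past the threshold. Of the 8 nuclear members of complex III, Uqcr10, Uqcr11 and Uqcrfs1, the Rieske iron-sulfur protein, had log2 differences of -0.035 ± 0.064, 0.22 ± 0.20 and 0.035 ± 0.068 (SE). Uqcr11 went to 0.0056 ± 0.093 without Ctrl 3. In complex IV, Cox5b, a subunit on the matrix side, stood at 55.1, 56.5, 54.2 and 63.6 FPKM in Ctrl and 62.6, 63.3, 69.3 and 59.0 in Ep1, with Ctrl 4 inside the range of Ep1 and a difference of 0.15 ± 0.071 (adjusted p 0.157). Cox4i1, Cox6a1 and Cox8a, the most abundant 3, had 0.067 ± 0.062, 0.22 ± 0.11 and 0.14 ± 0.081. Among the isoform partners, Cox8b at -0.31 ± 0.17 and Cox7a1 at 0.36 ± 0.22 had the largest differences, at 1 to 2 FPKM. For Cox4i2, Cox6a2, Cox6b1, Cox6b2, Cox7a2 and Cox7a2l they lay between -0.061 and 0.088.

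Complex V held 17 nuclear members with a median log2 difference of 0.0062. Atp5a1 stood at 7.07, 6.76, 7.38 and 7.25 FPKM in Ctrl and 7.03, 13.3, 8.16 and 9.94 in Ep1. Of the Ep1 libraries Ep1 1 lay inside the range of Ctrl, and Ep1 2 was the highest, with a log2 difference of 0.35 ± 0.15 (SE, adjusted p 0.122). Atp5b had 216.8 ± 4.25 and 221.8 ± 4.87 FPKM (SD, n = 4), a log2 difference of 0.032 ± 0.049. Atp5c1, the gamma subunit of the rotor, had -0.12 ± 0.059 (adjusted p 0.167) and Atp5d, the delta subunit, 0.20 ± 0.10. Of the c subunit genes, Atp5g1 had 0.068 ± 0.065, Atp5g2 -0.075 ± 0.077 and Atp5g3 0.20 ± 0.16. Atp5k had the largest difference of all members, 0.84 ± 0.57 (adjusted p 0.309), and 0.18 ± 0.16 without Ctrl 3.

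**Figure D5:**
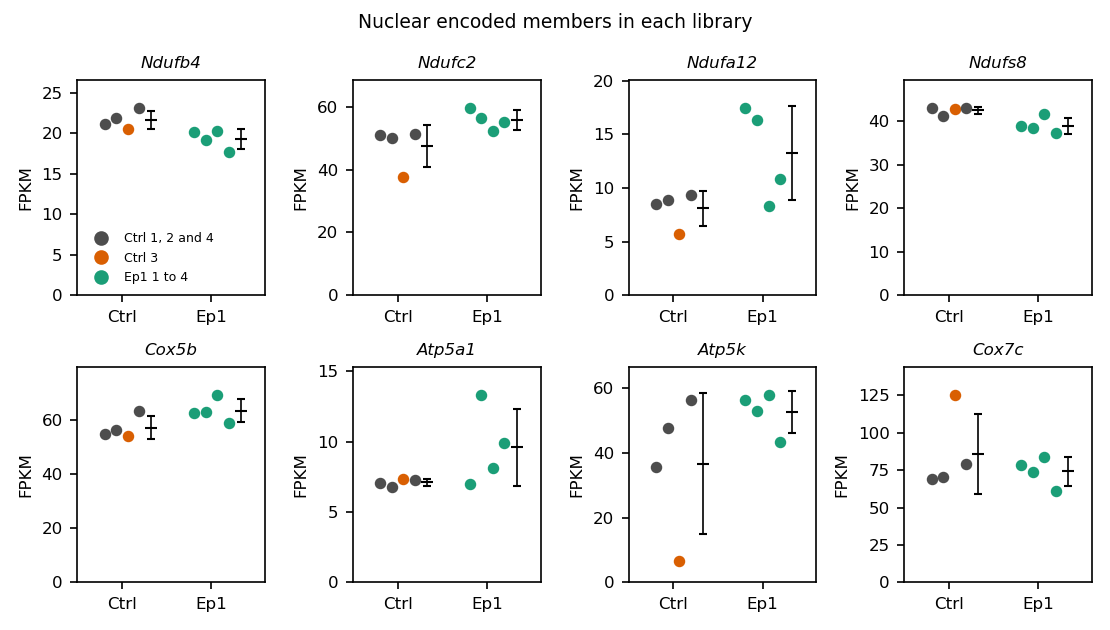
FPKM of 8 nuclear encoded members in each library (Ctrl in grey with Ctrl 3 in orange, Ep1 in green), with the mean and SD of each group (n = 4) as a bar beside the points. Groups do not overlap for Ndufb4 and Ndufc2, and Ctrl 3 stands far from the other libraries for Atp5k and Cox7c.

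The pseudogene Atp5pb-ps stood at 1.91, 1.57, 2.73 and 2.05 FPKM in Ctrl 1 to 4 and 2.87, 2.94, 2.52 and 3.68 in Ep1 1 to 4. Ctrl 3 overlapped with Ep1 3, and the log2 difference was 0.39 ± 0.13 (SE, adjusted p 0.0487). The call was kept in 3 of 16 alternative analyses, among them the one without Ctrl 3, and lost in 13, with adjusted p from 0.0137 to 0.128. Of its 50-base stretches, 55.7% occur in another annotated gene, so its level is uncertain; the parent gene Atp5pb had -0.064 ± 0.055 (adjusted p 0.416).

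Between the energies, 0 of 96 members passed limma after adjustment, with 1 lower and 0 higher at an unadjusted p under 0.05, and 0 by voom. Of all 14710 genes tested 1, or 0.0068%, passed limma, and 511 higher and 508 lower had an unadjusted p under 0.05. Ndufa12, described above, had a log2 difference of 20 minus 10 J/cm2 of -0.77 (adjusted p 0.605). With 2 libraries per energy the interval lay within 1.5-fold for 66 members.

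Of 9 other groups of mitochondrial genes, 8 gave calls, and in 7 the share of calls was below the 26.1% of all genes tested. In the group of electron carriers, uncoupling proteins and inhibitors, Ucp2, an inner membrane carrier of the uncoupling protein family, stood at 4.66, 4.33, 4.10 and 4.49 FPKM in Ctrl and 9.22, 9.39, 11.2 and 10.2 in Ep1. No library overlapped, and Ucp2 rose by 1.03 ± 0.071 on the log2 scale (SE, adjusted p 8.49e-05). Slc25a27, the neuronal carrier also called Ucp4, fell from 15.2 ± 0.702 to 11.7 ± 0.546 FPKM (SD, n = 4, adjusted p 0.00256). Of the 16 tested in that group 2 rose and 2 fell, or 25%, with a median log2 difference of -0.044.

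Genes that act on mitochondrial DNA and RNA or regulate mitochondrial number passed at shares of 20%, 16.7% and 26.3%, against 26.1% of all genes tested. Of 15 genes for mitochondrial DNA maintenance and transcription 1 rose and 2 fell, among them the methyltransferase Tfb1m, from 1.65 ± 0.129 to 0.937 ± 0.137 FPKM (SD, n = 4, adjusted p 0.00558), and Mterf2. Of 18 for RNA processing and stability 3 rose and 0 fell, with Elac2, which cuts the 3′ ends of mitochondrial transfer RNAs, up by 0.24 ± 0.063 and Tbrg4 up by 0.28 ± 0.078 on the log2 scale (SE). Voom called 3 of the 18 higher and 2 lower, where it called 29.5% of all genes tested. Of 19 regulators of mitochondrial biogenesis 3 rose and 2 fell, and Ppard rose by 0.47 ± 0.085 and Nrf1, a transcription factor of respiratory genes, by 0.34 ± 0.072. Median log2 differences of these 3 groups were -0.02, 0.046 and 0.049, beside 0.0072 for all genes tested. Leaving out 1 library moved these counts, and the share of all genes tested that passed then ran from 16.5% to 28.1%. The 3 calls for DNA genes became 1 without Ctrl 1, Ep1 1, Ep1 3 or Ep1 4. The 3 for RNA genes became 0 without Ep1 3 or Ep1 4, 1 without Ctrl 2 or Ep1 1 and 5 without Ctrl 3. The 5 for regulators became 3 without Ctrl 4, Ep1 1, Ep1 3 or Ep1 4.

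Of 76 mitochondrial ribosomal proteins 9 rose and 3 fell, or 15.8%, and Mrps26 rose from 10.4 ± 1.08 to 18.2 ± 1.65 FPKM (SD, n = 4, adjusted p 0.000771) and Mrps12 by 0.40 ± 0.067 on the log2 scale. Of 40 assembly factors 1 rose, Coa7 of complex IV by 0.36 ± 0.063, and 5 fell, among them Lyrm7, which helps to place the Rieske protein, with a log2 difference of -0.39 ± 0.09. Of 18 tricarboxylic acid cycle genes 2 rose, Suclg1 by 0.34 ± 0.059 and Dlst by 0.28 ± 0.065. Of 20 chaperone, protease and stress genes 7 rose and 0 fell, with Ddit3, a stress-response transcription factor, at 11.2 ± 1.38 and 19.7 ± 5.04 FPKM (adjusted p 0.0177) and the protease subunit Clpx up by 0.20 ± 0.054. The share of calls was 35%, against 26.1% of all genes tested. Voom called 4 of the 20, where it called 29.5% of all genes tested, so the higher share was not seen by voom. Median log2 differences of these 4 groups were 0.033, 0.0036, -0.04 and 0.10. The 12 calls for ribosomal proteins became 6 without Ep1 1, Ep1 3 or Ep1 4, and the 6 for assembly factors 3 without Ctrl 4 or Ep1 4. The 7 calls for chaperones, proteases and stress genes became 2 without Ctrl 1, Ctrl 2 or Ep1 1, 1 without Ep1 3 and 0 without Ep1 4. Of all genes tested, 16.5% to 21.1% passed when 1 of the libraries named here was left out.

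Of the 16 mitochondrial ribosomal and transfer RNAs tested, 0 passed by limma or voom and 0 had an unadjusted p under 0.05; the 2 with the smallest p were mt-Th at -0.45 ± 0.22 and mt-Tl2 at 0.85 ± 0.55 (SE), with a median of 0.10 over the 16. Over all genes tested 26.1% passed by limma and 29.5% by voom. Without Ctrl 3, 1 of the 16 passed, against 26.6% of all genes tested. In Ctrl 3, 6 of the 10 transfer RNAs with 10 FPKM or more in the other controls were below all other libraries and 2 were above them. Of the 13 mitochondrial messages, 8 were above all other libraries and 0 below. Summed cell type markers differed in value between the groups, and single markers did not all go with their sum: those of red blood cells were at 29.3 ± 4.495 and 177.3 ± 88.3 FPKM in Ctrl and Ep1, of endothelial cells at 33.8 ± 3.74 and 55.7 ± 10.6, of astrocytes at 108.1 ± 8.85 and 148.5 ± 8.84 and of microglia at 49.3 ± 2.13 and 27.6 ± 1.81 (SD, n = 4). The sum for neurons was 1271 in both groups, markers of oligodendrocytes were at 795 ± 127 and 762 ± 97.0 and of pericytes at 30.4 ± 0.558 and 25.6 ± 0.225, with no marker at 0. Of the astrocyte markers Gfap was at 31.7 ± 8.60 FPKM in Ctrl and 70.9 ± 7.97 in Ep1, Aqp4 at 13.4 ± 1.49 and 11.3 ± 0.417 and Slc1a3 at 51.5 ± 2.61 and 50.2 ± 1.52 (SD, n = 4). Of the endothelial markers Cdh5 was at 3.08 ± 0.214 and 10.5 ± 2.97 and Tek at 2.53 ± 0.244 and 1.04 ± 0.162. Of the neuron markers Syt1 was at 194.7 ± 17.9 and 163.6 ± 6.89 and Rbfox3 at 54.6 ± 6.05 and 66.5 ± 3.36, both without overlap between groups. The part of cell makeup in the members' values was not tested.

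Nuclear members shared short promoter sequences more often than genes at large. RefSeq promoters (GRCm38.p6), windows that run from before to just after the gene start, were found for 66 of the 80 and were searched on both strands for cores of the sites of NRF1 (GCATGCGC), ETS factors (CCGGAAG) and YY1 (AAGATGGC), which are known from respiratory gene promoters. They occurred in 15.2%, 24.2% and 15.2% of members and in 3.0%, 9.9% and 3.2% of 27025 genes, which include noncoding ones. A match is a run of letters and shows no binding.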

How the data were processed

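The authors deposited 1 table of FPKM values per gene for 8 libraries, scaled by 1 total per library. Columns named C1 to C4 and E1 to E4 were read as Ctrl 1 to 4 and Ep1 1 to 4 by letter and number, which is an inference, and all per-sample columns were used. Bowtie 0.12.2 and the build mm8 are named in the submitters' processing notes, with no role given, while 99.4% of 55227 matched identifiers had the GENCODE M21 (GRCm38) start and end. Counting tool, strand and filters are not given in the sources used here, so overlapping and antisense genes were not separated; 58 of the 96 members overlap no other exon. FPKM times length gave whole fragments to within 0.01 for 100% of values, 15038147 to 17772972 per library. The total used for scaling was above this sum in every Ctrl library and in Ep1 2, and below it in Ep1 1, 3 and 4. FPKM differences between groups hold this difference in scaling, whose part in them was not tested.

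Genes with a mean of 1 FPKM or more in either group, 14710 in all, were put on a log2(FPKM + 1) scale and tested by limma 3.58.1 under R 4.3.3 (trended, robust variance; all 8 libraries; Benjamini-Hochberg at 0.05). Fold changes on this scale understate those of low genes. A fit with 3 groups compared 20 with 10 J/cm2. Other settings tried were another pseudocount, minimum, scaling or variance model, a replicate block, voom on recovered fragments, and leaving out each library in turn. The pipeline was tested on simulated data. It recovered 35 of 67 genes with a simulated 1.5-fold change, 52 of 66 with a 2-fold change and 63 of 66 with a 4-fold change. Of 156 calls, 6 were of unchanged genes. The changed genes were drawn at random from expressed genes and not from the members. Members, lists and most tests were chosen with earlier results of these data known. The naming rule took all mitochondrial members, the 3 most abundant nuclear members of each complex, all of complex II, members that passed, the 5 nuclear members with the smallest p in each direction, isoform partners, and 2 genes of each other list; 1 gene that it takes is not reported here. Other genes (Atp5k, Atp5o, Cox7c, Ndufb9, Ndufs3, Ndufs4, Uqcrc1, Uqcrc2, Uqcrq, Atp5mpl, Atp5pb and CT010467.1), the length and GC classes and the levels of the nuclear copies were chosen after values were seen. The same holds for Ndufs7, Cox7c-ps1 and Atp5l2-ps. Shared 50-base stretches were counted in GENCODE M21 transcripts. Tables and plots were made with Python 3.11.15, numpy 2.4.6, pandas 2.3.3 and matplotlib 3.10.9.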

Additional observations from a re-analysis of the deposited data

Results flagged for a closer look

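Of 94 checks of single libraries within a group of 4, covering 46 named members and the mitochondrial share, 14 found a library farther from the nearest other library than Dixon's 95% critical value allows, where chance gives about 1 in 20 groups. The checks share libraries and are not independent. In 10 of the 14 the library was Ctrl 3. It was above the other controls for mt-Nd2 (3935 FPKM against 1969 to 2247), mt-Nd4 (2649 against 1690 to 1827), mt-Nd5 (2668 against 1646 to 1738), mt-Nd6 (2985 against 1456 to 1628), mt-Co1 (11208 against 7279 to 7900) and the share of fragments in mitochondrial members (4.335% against 2.84% to 3.06%). It was below them for Ndufa2 (32.1 FPKM against 75.7 to 80.8), Ndufc2 (37.5 against 50.1 to 51.3), Cox6b1 (109.1 against 151.9 to 156.6) and Atp5g2 (28.0 against 33.0 to 33.7). The other 4 were mt-Nd6 in Ep1 3 (1700.5 FPKM against 1534 to 1549), Atp5b in Ep1 4 (214.5 against 224.1 to 224.3), Atp5d in Ep1 2 (95.4 against 106.3 to 108) and Ndufs8 in Ctrl 2 (41.2 against 42.8 to 43.1).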

How the results depend on the processing

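Counts of mitochondrial members past the threshold stayed at 0 higher and 0 lower except with the replicate block (1 higher, mt-Atp8) and when single libraries were left out, where each ran from 0 to 1 (mt-Atp6 without Ctrl 4, mt-Atp8 without Ep1 1, mt-Nd3 without Ctrl 2). For nuclear members the main count of 1 higher became 0 with no filter, with a minimum of 5 FPKM, with median of ratios scaling, with rescaling without mitochondrially encoded genes and CT010467.1, without trended variance and with voom, and 0 to 1 with a library left out. The count of 0 lower became 2 with quantile normalization and 2 with that rescaling (Ndufs8 and Ndufb4), and 0 to 1 with a library left out. Calls also came for Ndufa12 with the replicate block or without Ep1 3 and for Atp5a1 without Ep1 1. Over all genes tested, 2275 higher and 1566 lower became 1946 and 1996 with quantile normalization, 1968 and 2045 with the rescaling, 1699 and 921 at 5 FPKM and 1739 and 987 with the replicate block, with 860 to 1716 lower and 1567 to 2425 higher without 1 library. No filter gave 1772 and 1045, and voom 2137 and 2208. The Ep1 minus Ctrl share of the mitochondrial members was -1.006 points in summed FPKM, against -0.359 in fragments, and -0.508 to -0.0105 without 1 library, nearest 0 without Ctrl 3; their median log2 difference ran from -0.224 to 0.019. Deviations from the group means had an r of -0.0536 to 0.0602 between same-numbered libraries and of -0.0747 to 0.0423 between the others. This cannot settle whether replicate numbers pair libraries, because deviations sum to 0 in each group and those of Ep1 hold the split by energy. Calls in the other gene lists ran widely between settings other than a left-out library: 1 to 3 for DNA genes, 1 to 5 for RNA genes, 3 to 6 for regulators, 2 to 9 for assembly factors, 3 to 6 for carriers, 5 to 13 for ribosomal proteins, 1 to 3 for tricarboxylic acid cycle genes and 1 to 7 for chaperones and proteases, the last with 3 under quantile normalization and under the rescaling and 1 with the replicate block. Between energies 0 members passed in the main analysis and in each alternative, which shows no stability: with 2 libraries per energy 1 of 14710 genes passed, and where an Ep1 library was left out the lone library of its energy was assumed to vary like the other groups. The causes were not tested. The values of mt-Atp8 rest on 9 to 27 fragments per library and are uncertain.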
